A study of Homo sapiens with 2 samples.

Results

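The DNA replication and G1/S genes are a list of 51 genes whose products prepare, start and carry out the copying of DNA, together with the cyclins, kinases and E2F factors that control entry into S phase. All probes carrying one of these gene symbols in the deposited annotation were taken, which gave 64 of the 58199 probes and 51 of the 34757 gene symbols on the array. The cells were A375, an established human melanoma cell line, and they had been transfected either with siRNA against THOC2 (si-THOC2) or with a control siRNA (NC). Total RNA was collected 48 h later, and 1 sample of each kind was hybridized to 1 Agilent 1-colour array. THOC2 is a subunit of the THO/TREX complex, which couples transcription to the export of mRNA. Neither condition had a replicate, so no p-value is given, and each difference reported here is one between 2 arrays. For both samples, the source field of the labels names the opposite condition to the title and description. The description was followed. The methods list several THOC2 siRNAs and do not say which was used on the array, and A375 was the only line on the arrays.

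THOC2 was measured by 2 probes. The first gave signals of 136 (NC) and 40.9 (si-THOC2), and the second gave 67.3 and 35.1. Both were therefore lower on the array labelled si-THOC2, by log2 differences of -1.42 and -0.63. A difference is always si-THOC2 minus NC, taken on log2 signals after each array was reduced by its 75th percentile. A probe was compared if the scanner software called it well above background on at least 1 array, and 25345 probes were. Before scaling, the median si-THOC2 signal of these probes was 0.821 of the NC signal, and the scaling added 0.31 to every log2 difference. Repeated spots of the same probe gave the technical SD of a log2 difference, which was 0.06 where the log2 signal was over 8, 0.11 between 6 and 8, 0.29 between 4 and 6, and 0.44 below 4. This error leaves out any difference between cultures. The SOX10 probe and 2 of 3 MITF probes, which mark the melanocyte lineage of A375, were well above background on both arrays, whereas all probes of the pigment genes TYR and PMEL were below it. Of the other melanocyte markers, the pigment gene DCT was at 0.75 at low signals, S100B at -0.66 on its measured probe (199 and 102), and 1 MLANA probe was above background with si-THOC2 alone (2.94 and 18.7). Of 15 probes for 8 marker genes of other cell types, 10 were below background on both arrays. These were the probes of EPCAM, KRT5 and COL1A1, and all but 1 probe of each of DCN, PECAM1 and PTPRC. Within DCN, PECAM1 and PTPRC the probes thus disagreed on detection. The other 5 probes, of DCN, CD3E, DES, PECAM1 and PTPRC, passed the background call with NC and with si-THOC2. All 5 were higher with si-THOC2, with a median difference of 0.51. DCN was at 1.56 (signals 62.4 and 149) and DES at 0.51 (193 and 221). CD3E, PECAM1 and PTPRC were at 0.87, 0.43 and 0.39, each with a technical SD of 0.29. The part of these 5 probes in the results below was not tested.

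Before S phase, the origin recognition complex, CDC6 and CDT1 load the MCM2 to MCM7 helicase onto origins of replication, a step called licensing. CDC45 and the GINS complex then switch the helicase on, polymerases extend from primers that primase lays down, and PCNA, loaded by the RFC complex, holds the polymerases on DNA. Cyclin D with CDK4 or CDK6, and cyclin E with CDK2, release E2F factors from the RB protein, and E2F factors switch on many genes of this list.

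Most of the 51 members were slightly higher with si-THOC2, and none changed by 2-fold. Of the 64 probes, 62 were compared and 61 were well above background on both arrays. No member probe reached a 2-fold difference in either direction. Of all compared probes, 3.33% reached it downward and 2.93% upward, but most of these were well above background on 1 array only. Among the 22207 probes well above background on both arrays, 81 reached it downward and 184 upward. A 2-fold difference was therefore rare among probes measured like the members, and its absence does not set the members apart. At 1.5-fold, 8 of the 62 member probes were higher, against 6.14% of all compared probes, and 2 were lower, against 7.69%. With normexp background correction in place of the scanner's, no member probe reached 1.5-fold, and the median of the members was 0.21 in place of 0.34. A gene's difference is the mean over its compared probes, and for the 51 members its median was 0.34 (1.27-fold). The median over all 17514 genes compared was 0.02. The difference was above 0 for 45 of the 51 members, against 53.4% of all genes, and 38 members lay above the upper quartile of all genes (0.20), against 25% of all genes. When probes below background on both arrays were kept as well, 16 members lay above the upper quartile, which was then 0.44, and the gap between the medians of the members and of all genes was 0.13 in place of 0.32. With no scaling between the arrays, the median of the members was 0.03 and that of all genes -0.29, so the members were higher in relation to other genes, while their own signals differed little. In RNA of a whole culture, a larger share of cells in S phase and more RNA per cell cannot be told apart.

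**Figure D1:**
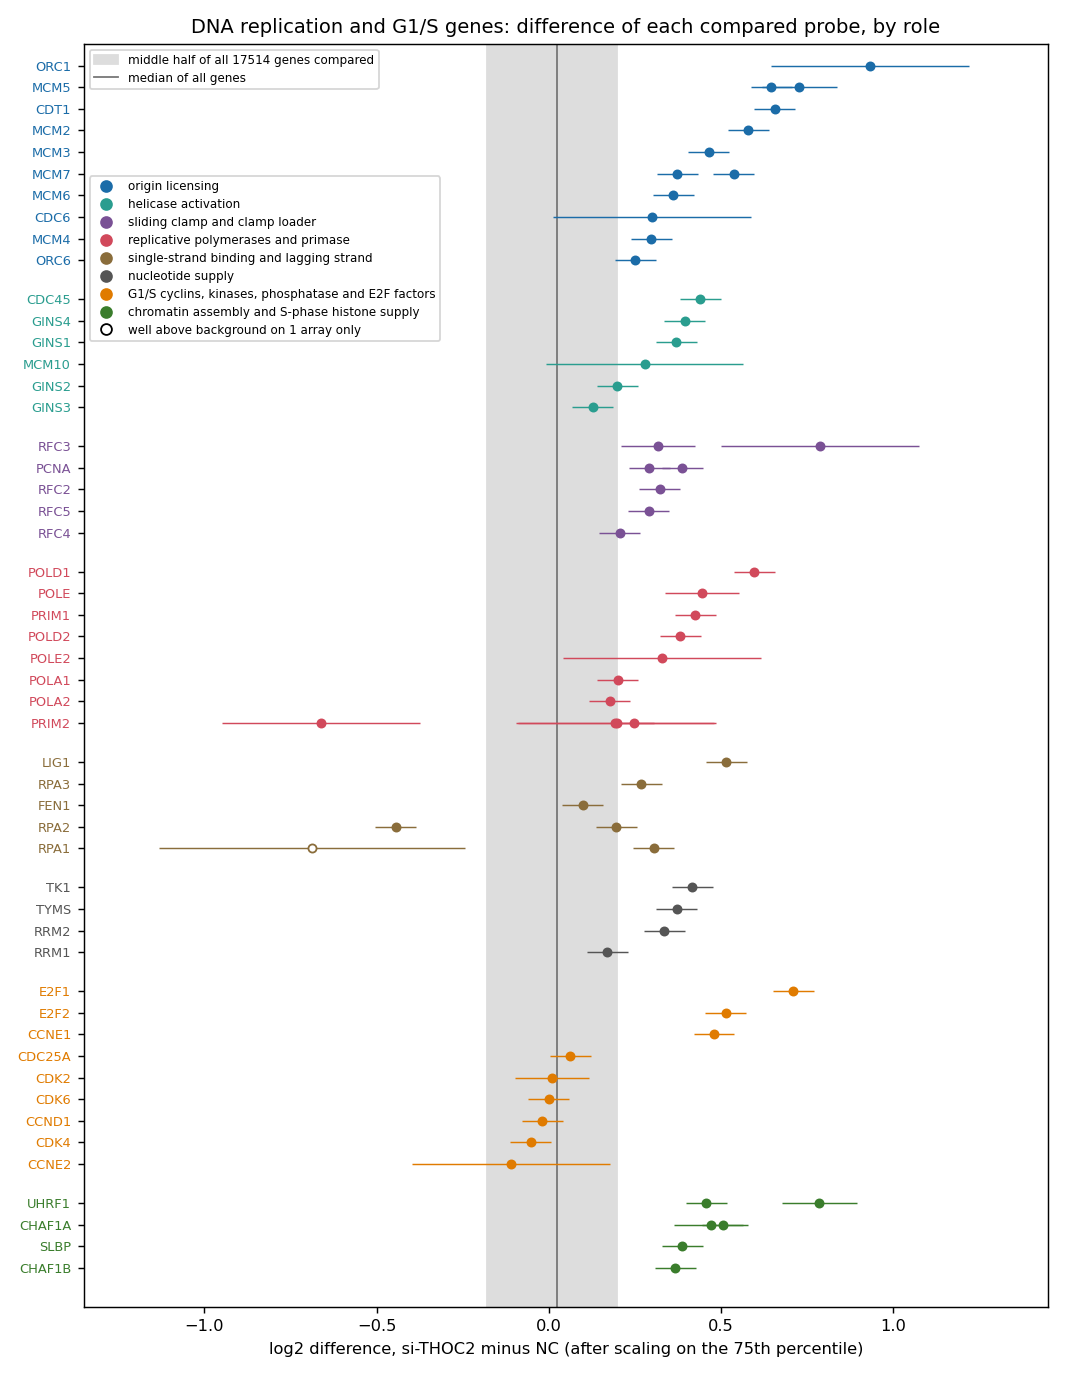
Log2 difference (si-THOC2 minus NC, x axis) of each compared probe of the 51 genes, with genes in rows and colours for their 8 role groups. Lines through the points are the technical SD from repeated spots of like signal, open points were well above background on 1 array only, and the grey band runs from the lower to the upper quartile of all 17514 genes. All 10 licensing genes lie above the band, while CDK2, CDK4, CDK6 and CCND1 lie near 0.

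The brighter probes, which have the smallest technical error, gave the same picture. For 46 member probes the log2 signal was over 8 on both arrays, and their differences had a median of 0.36 and a range from -0.44 to 0.71. All 9586 probes at this level had a median of 0.07 (SD 0.22). Here 4 of the 46 member probes were higher by 1.5-fold or more, against 1.01% of all probes at this level, and none was lower by as much. Each member probe was also set beside the 1000 compared probes nearest to it in signal. For 33 of the 62, fewer than 10% of those probes had a larger difference. By the way this is counted, about 10% of all compared probes are so placed. For 8 of the 62, more than 50% of the nearest probes had a larger difference.

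**Figure D2:**
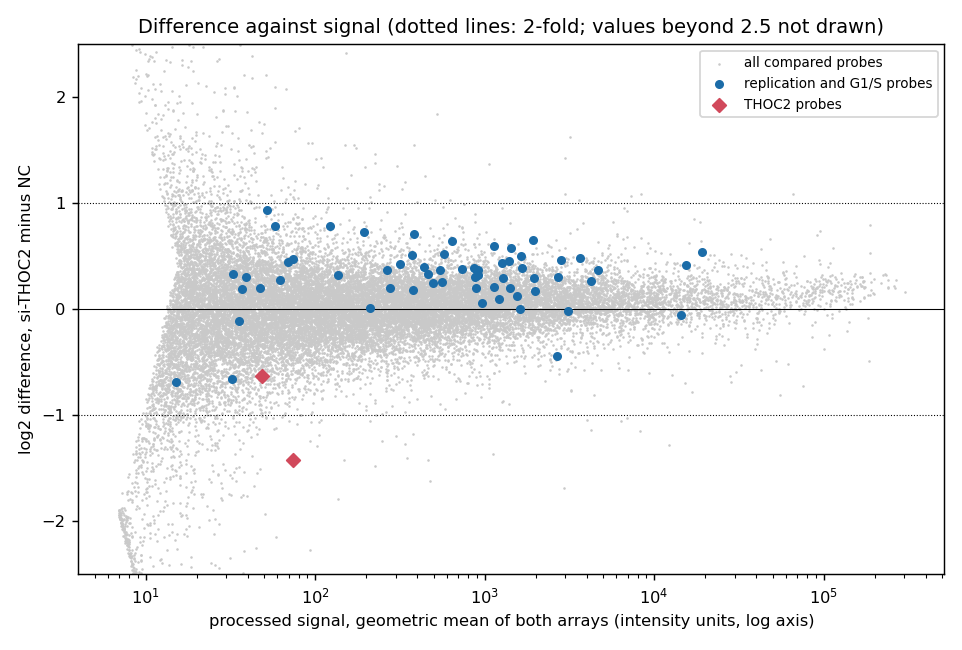
Log2 difference (y axis) against the geometric mean of the processed signals of both arrays (x axis, log scale), with all 25345 compared probes in grey except those beyond 2.5, 62 replication and G1/S probes in blue and both THOC2 probes as red diamonds. Most blue points lie above the line at 0 over the whole range of signal, and none crosses the dotted lines at 2-fold.

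Because E2F factors control many genes of this list, promoter sequences from RefSeq (GRCh38.p14) were searched for the 8-base E2F motifs TTTCCCGC, TTTCGCGC, TTTGCCGC and TTTGGCGC on both strands. The window was the 250 bases before each gene's start. Only exact matches were counted, so a promoter without one can hold close sequences, such as TTTGGCGG in CDC6 and CDC45. Promoters were matched for 43 of the 51 members, and those of MCM4, MCM5, GINS4, CCND1, CCNE2, CDK2, RPA2 and RPA3 were not analysed here. At least 1 motif was present in 16 of the 43 (37.2%), against 2.79% of all 27305 promoters and 4.10% of those of compared genes. The median difference of the 16 genes was 0.45, and that of the other 27 was 0.33. Over all compared genes with a promoter, the median was 0.05 for the 437 with a motif and 0.02 for the 10233 without. The motif was thus frequent among the members, but they were chosen as replication and G1/S genes, many of which E2F factors control. This share therefore describes the list and not a change on these arrays. Whether E2F factors had a part in the differences was not tested. The letters CCAAT, to which NF-Y binds, were in 53.5% of member promoters and 33.0% of all. The letters TTTGAA, which occur in promoters of many G2/M genes, were in 1 of the 43 member promoters and in 18 of 32 promoters of the mitosis and G2/M genes described below, against 13.6% of all. A match describes letters and does not show binding.

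The promoters of E2F1 (chr20:33686386-33686635, minus strand), CDT1 (chr16:88803539-88803788, plus strand), UHRF1 (chr19:4909251-4909500, plus strand) and LIG1 (chr19:48170345-48170594, minus strand) are shown as examples of members with a motif and a difference over 0.5. MCM6 (chr2:135876444-135876693, minus strand) is shown because it held the most matches, and ORC1 (chr1:52404424-52404673, minus strand) because it had the largest difference and no exact match. Bases run 5′ to 3′ towards the gene's start, and capitals mark the motif.
E2F1: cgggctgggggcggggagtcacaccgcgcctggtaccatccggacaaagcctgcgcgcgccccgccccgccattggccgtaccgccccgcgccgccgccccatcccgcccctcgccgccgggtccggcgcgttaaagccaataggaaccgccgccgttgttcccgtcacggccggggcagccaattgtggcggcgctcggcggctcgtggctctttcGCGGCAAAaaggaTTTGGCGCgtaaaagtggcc
CDT1: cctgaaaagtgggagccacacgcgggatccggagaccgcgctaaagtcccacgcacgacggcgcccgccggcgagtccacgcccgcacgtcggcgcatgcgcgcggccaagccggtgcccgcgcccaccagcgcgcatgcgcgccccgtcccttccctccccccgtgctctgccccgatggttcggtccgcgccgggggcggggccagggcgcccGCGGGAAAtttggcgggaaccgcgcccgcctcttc
UHRF1: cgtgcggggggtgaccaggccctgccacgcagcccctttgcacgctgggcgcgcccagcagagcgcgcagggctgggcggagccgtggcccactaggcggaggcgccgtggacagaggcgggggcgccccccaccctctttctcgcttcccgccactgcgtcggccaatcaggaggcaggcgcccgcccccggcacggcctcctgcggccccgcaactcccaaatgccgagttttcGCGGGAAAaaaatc
MCM6: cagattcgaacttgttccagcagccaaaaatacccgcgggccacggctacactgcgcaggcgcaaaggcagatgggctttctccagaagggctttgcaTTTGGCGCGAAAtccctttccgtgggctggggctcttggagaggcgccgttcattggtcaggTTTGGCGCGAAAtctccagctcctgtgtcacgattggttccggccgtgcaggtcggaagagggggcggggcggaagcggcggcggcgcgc
LIG1: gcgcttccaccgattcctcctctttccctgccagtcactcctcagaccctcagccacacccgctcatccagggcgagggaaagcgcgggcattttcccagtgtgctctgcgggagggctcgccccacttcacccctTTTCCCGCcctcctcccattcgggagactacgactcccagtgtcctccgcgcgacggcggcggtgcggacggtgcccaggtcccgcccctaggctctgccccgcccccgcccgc
ORC1: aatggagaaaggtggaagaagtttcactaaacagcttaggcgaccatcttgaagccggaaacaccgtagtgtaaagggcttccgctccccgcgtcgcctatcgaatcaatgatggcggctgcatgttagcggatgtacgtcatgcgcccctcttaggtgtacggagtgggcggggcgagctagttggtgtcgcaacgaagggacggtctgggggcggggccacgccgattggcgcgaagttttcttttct
E2F1 held 2 motifs, with their middles 29 and 16 bases before the start. The motif of CDT1 lay 31 bases before the start, that of UHRF1 10 bases and that of LIG1 110 bases. In MCM6 the 4 matches formed 2 sites, with middles 148 and 144 bases before the start at the first and 86 and 82 at the second, since at each place TTTGGCGC on one strand overlapped TTTCGCGC on the other by 4 bases.

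All 10 licensing genes were higher with si-THOC2, with a median log2 difference of 0.46 and a range from 0.25 to 0.93. ORC1, the largest subunit of the origin recognition complex, had signals of 42.0 (NC) and 64.7 (si-THOC2), which gave the largest difference of all members (0.93, technical SD 0.29). Its signal was low, so the size of this difference is known less well than for brighter members. ORC6, a smaller subunit, had signals of 573 and 550 and a difference of 0.25. CDT1, the loader of the MCM helicase, had signals of 1716 and 2182 and a difference of 0.66 (technical SD 0.06). No probe among the 1000 nearest in signal had a larger difference. CDC6, the other loader, had signals of 39.5 and 39.2, and its difference of 0.30 was close to its technical SD of 0.29.

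The 6 subunits of the MCM helicase were all higher after scaling. MCM5 was measured by 2 probes, at positions 35813789 to 35813848 and 35819307 to 35820178 of chromosome 22 (hg19). The first had signals of 168 and 225 and the second of 570 and 720, and their differences of 0.73 and 0.65 lay within 0.08 of each other. MCM2 (signals 1311 and 1580) was at 0.58 and MCM3 (2673 and 2975) at 0.46. MCM7 was at 0.54 on its bright probe (17682 and 20700) and at 0.37 on its other probe (259 and 270). MCM6 was at 0.36 and MCM4 at 0.30, with signals of 886 and 879 for MCM4. MCM5 was thus highest and MCM4 lowest. The technical SD of 0.06 to 0.11 describes repeated spots of the same probe and not differences between probes. The 2 probes of MCM7 were 0.16 apart, so the order of the subunits is uncertain.

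The helicase activators were also all above 0, with a median of 0.32. CDC45 had signals of 1217 and 1331 and a difference of 0.44. Within the GINS complex, the difference was 0.39 for GINS4, 0.37 for GINS1, 0.20 for GINS2 and 0.13 for GINS3. GINS3 (signals 1667 and 1468) was thus within the quartiles of all genes. MCM10, which helps to open the helicase, was at 0.28 with a technical SD of 0.29.

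PCNA, the sliding clamp, had 2 probes with differences of 0.29 (signals 1980 and 1956) and 0.39 (842 and 888). Of its loader, RFC2 was at 0.32, RFC5 at 0.29 and RFC4 at 0.21. RFC3 was at 0.32 on its brighter probe (137 and 137) and at 0.79 on the other (49.1 and 68.3, technical SD 0.29). That second probe lay at row 163 and column 28, in a block of the array where 27.5% of the 218 compared probes were higher by 1.5-fold or more and the block median was 0.18. The part of its place in the difference was not tested.

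Of the polymerase genes, POLD1, the catalytic subunit of polymerase delta, had the largest difference (0.60, signals 1033 and 1260). POLE, the catalytic subunit of polymerase epsilon, was at 0.44 on its measured probe (66.0 and 72.5), and its other probe was below background on both arrays. POLD2 was at 0.38, POLE2 at 0.33 (technical SD 0.29), POLA1 at 0.20 and POLA2 at 0.18. PRIM1, the catalytic primase subunit, was at 0.43, but the larger subunit PRIM2 gave a mixed picture. Its probes at 0.25 (signals 506 and 484), 0.20 and 0.19 differed from a probe at -0.66 (signals 45.2 and 23.0, technical SD 0.29, positions 57393126 to 57393184 of chromosome 6, hg19). The mean over these 4 probes was -0.01, so the value of PRIM2 depends on its probes.

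The single-strand binding proteins and the enzymes of lagging-strand maturation were uneven, with a median of 0.10 and a range from -0.19 to 0.51. LIG1, the ligase that joins Okazaki fragments, had signals of 540 and 623 and a difference of 0.51, whereas FEN1, the flap endonuclease, was at 0.10 (1307 and 1129). RPA1, RPA2 and RPA3 form the complex that coats single-stranded DNA. RPA3 was at 0.27. RPA2 was the one member with a bright probe clearly lower with si-THOC2, at positions 28218305 to 28218364 of chromosome 1 (hg19), with signals of 3472 and 2058 and a difference of -0.44. Of the 1000 probes nearest in signal, 97.9% had a larger difference. Its other probe, at 28218589 to 28218648, had signals of 1461 and 1350 and a difference of 0.20, so the probes of RPA2 were 0.64 apart against a technical SD of 0.06 for each. RPA1 was at 0.30 on its bright probe (2718 and 2708). Its dim probe was above background with NC alone and was at least 1.08-fold lower with si-THOC2, and with that probe as measured (-0.69) the mean of RPA1 was -0.19.

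The genes of nucleotide supply were all above 0. TK1, thymidine kinase, had signals of 14903 and 16041 and a difference of 0.42. TYMS, thymidylate synthase, was at 0.37 (4591 and 4791). Of ribonucleotide reductase, the subunit RRM2 was at 0.33 and RRM1 at 0.17. The chromatin genes were similar, with a median of 0.44. UHRF1, which helps to copy DNA methylation, was at 0.46 on its bright probe (1320 and 1463) and at 0.79 on the other (104 and 144). Both probes of CHAF1A, a subunit of chromatin assembly factor 1, were close, at 0.50 (signals 1528 and 1750) and 0.47 (70.4 and 78.8), and CHAF1B was at 0.37. SLBP, which binds histone mRNA, was at 0.39 (1619 and 1708).

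The regulators of G1/S differed among themselves. Cyclin D1 and the kinases were close to 0 with the scaling used here. CCND1 (cyclin D1) was at -0.02, CDK6 at 6.4e-05, CDK2 at 0.01 and CDK4 at -0.05, with signals of 16261 and 12655 for CDK4, 1802 and 1454 for CDK6, and 233 and 189 for CDK2. The phosphatase CDC25A was at 0.06. In contrast, E2F1 was at 0.71, E2F2 at 0.51 (346 and 398) and CCNE1 (cyclin E1) at 0.48 (3426 and 3854). CCNE2 (cyclin E2) was at -0.11 on its measured probe (41.1 and 30.7, technical SD 0.29), and its other probe was below background on both arrays. Over the 9 regulators the median was 0.01, and without them the median of the other 42 members was 0.36. Since there was 1 array per condition, this contrast could not be tested.

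For 6 members the probe was printed on 10 spots of each array, which shows the precision of single values. Leaving out spots that the scanner software called outliers, the 10 NC spots of E2F1 had signals from 313 to 352 (median 334) and the 10 si-THOC2 spots from 419 to 457 (median 439). The 2 sets did not overlap even before scaling, and the difference at the same place ran from 0.56 to 0.85 over 10 places. PRIM1 ranged from 291 to 323 with NC (median 305) and from 311 to 350 with si-THOC2 (median 336), and CHAF1B from 521 to 552 (median 530) and from 522 to 596 (median 554). These 2 probes overlapped before scaling and did not overlap after it, with differences of 0.43 and 0.37. GINS2 went from 907 to 945 with NC (median 918) and from 810 to 934 with si-THOC2 (median 856), so its median was lower before scaling and its difference was 0.20 after it. For ORC6 the scaled spots overlapped, with 9 of 10 places above 0 and a technical SD of 0.14. The spots of CCND1 ranged from 3361 to 3634 with NC (median 3460) and from 2689 to 2892 with si-THOC2 (median 2750). After scaling they overlapped, and its difference of -0.02 was within the technical SD of 0.06. The technical SD is that of single spots, and the error of a mean over the spots is smaller. Spots of 1 array share 1 RNA sample and are not replicates of the condition.

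**Figure D3:**
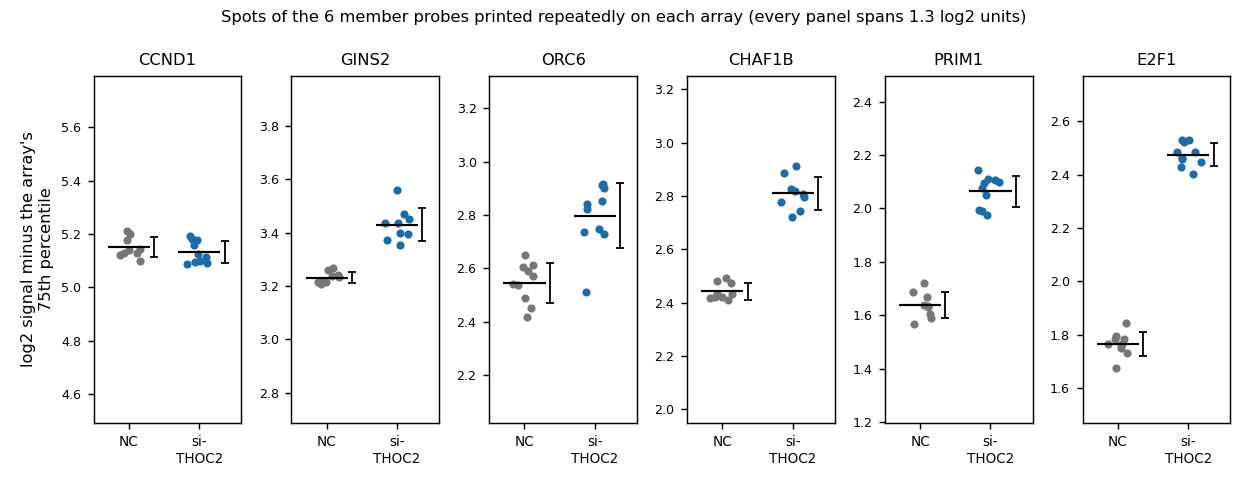
Log2 signal minus the 75th percentile of the array (y axis) of every spot without an outlier flag, for the 6 member probes printed on 10 spots of each array. Horizontal lines are means and bars are SDs over spots. The NC and si-THOC2 spots are apart for E2F1, PRIM1, CHAF1B and GINS2, and overlap for ORC6 and CCND1.

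The place of the probes on the array and their base composition were examined next. A probe printed on several spots was placed by its first spot alone. Placed so, the 62 member probes lay in 52 of 128 blocks, whose medians ran from -0.07 to 0.19. Of these probes, 54 were above the median of their block. Of the 8 probes higher by 1.5-fold, that of CDT1 lay in a block where 2.89% of compared probes were as much higher. That of ORC1 lay in one with 1.25% and that of POLD1 in one with 5.58%. Those of MCM5 lay in blocks with 8.06% and 5.24%, and the dim probe of UHRF1 in one with 9.28%. The first spot of E2F1 lay in a block with 7.76%, but its difference is a mean over 10 spots spread over the array, so this share does not describe it. Among member probes lower by 1.5-fold, that of PRIM2 lay at row 191 and column 98. In its block, 6.67% of compared probes were as much lower. The dim probe of RPA1 lay at row 211 and column 102, in a block with 7.28%. Probes with more G and C were somewhat higher over the whole array. Among probes with 35 to 40% G and C, the median was -0.04 for 7373 compared probes and 0.32 for 22 member probes, and at 55% and more it was 0.10 for 4550 and 0.47 for 9. On chromosome 19, the 7 probes of UHRF1, CHAF1A, CCNE1, LIG1 and POLD1 ran from 0.46 to 0.79, where the median of 1494 compared probes was 0.09.

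Other genes of the same pathway, which were not members, were nearer to the average gene. Of 35 further replication and S-phase genes, 31 were compared, with a median of 0.09, and 19 of the 31 were above 0. CHTF18 (0.55), DSCC1 (0.50) and TIMELESS (0.43) were the largest of those measured on both arrays. Of the 31, 8 (25.8%) lay above the upper quartile of all genes, against 25% of all genes. The single probe past 2-fold was a dim probe of ORC4, which was lower. Among CDK inhibitors and RB family genes, with a median of -0.03 over 8 genes, CDKN1B, which encodes the inhibitor p27, was at -0.58 and -0.44 on its 2 probes, CDKN2C at -0.35 and RBL1 at 0.45. A further list of 10 compared genes held cyclins, E2F factors, their partners and the phosphatase CDC25B (median 0.14). In it, CDC25B was at 0.58, TFDP1, the binding partner of E2F factors, at 0.47 and E2F7, a repressor of E2F targets, at -0.19. The 38 mitosis and G2/M genes had a median of 0.03, and 7 lay above the upper quartile of all genes and 9 below the lower one. INCENP (0.73), MAD2L1 (0.53) and TTK (-0.51) had the largest differences there. The 51 members thus stood 0.32 above the median of all genes, the other replication and S-phase genes 0.07 and the mitosis genes 0.01. Members and lists were chosen with earlier results of these data known, so this contrast describes the lists as chosen. None of these values has an error from replicates.

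**Figure D4:**
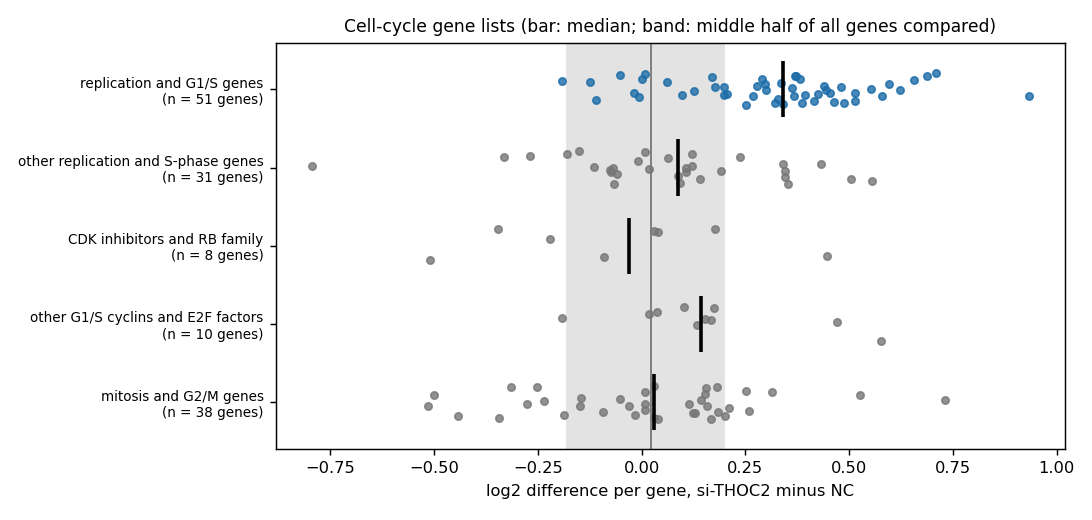
Log2 difference per gene (si-THOC2 minus NC, x axis) for the 51 replication and G1/S genes in blue and 4 other cell-cycle lists in grey. Black bars are medians, and the band runs from the lower to the upper quartile of all genes compared. The blue median is at 0.34, while the median of the mitosis and G2/M genes is at 0.03.

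**Figure D5:**
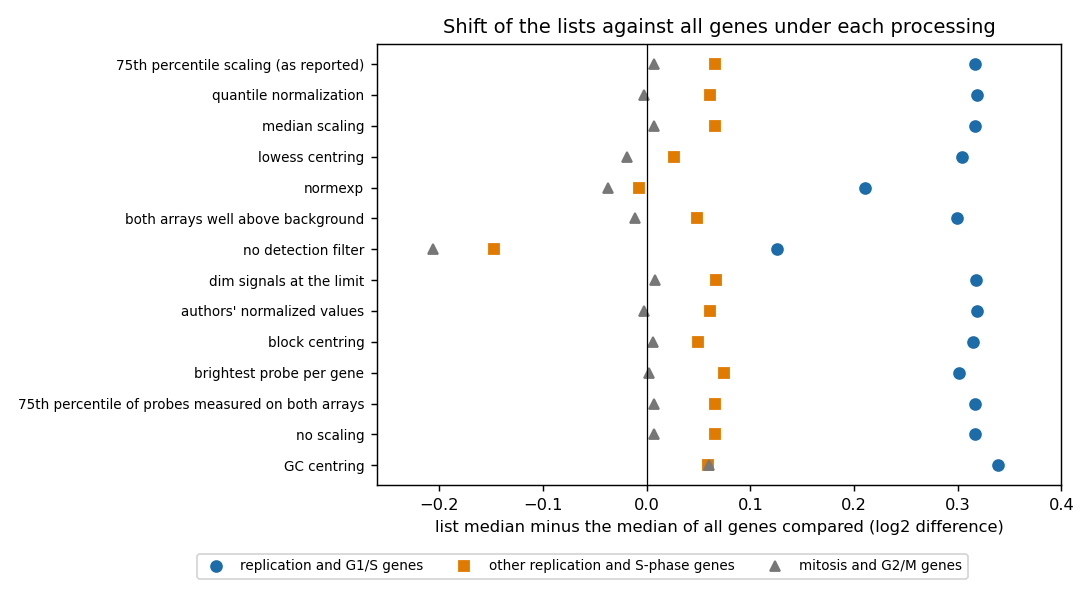
Median of 3 lists minus the median of all genes compared (x axis, log2 difference) under each processing (rows). The replication and G1/S genes stay above 0 in every row, from 0.13 with no detection filter to 0.34 after centring by base composition, and the mitosis and G2/M genes run from -0.21 to 0.06.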

How the data were processed

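RNA of 2 A375 samples, 1 with NC and 1 with si-THOC2, was measured on Agilent SurePrint G3 v3 arrays. The deposited scanner files hold intensity values per spot, which the authors made with Feature Extraction 10.7.1.1 (background subtracted, trends over the array corrected). The authors also deposited normalized log2 values, used here as an alternative, and a table of their own fold changes, which was not used.

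Control spots and outlier spots (147 with NC, 168 with si-THOC2) were removed. Saturation was called on no spot. Spots of a probe were averaged as log2 processed signal minus the array's 75th percentile. Of 58199 probes, 24616 (42.3%) were well above background with NC and 22936 (39.4%) with si-THOC2. Precision is limited by having 1 array per condition, and counts and medians over lists are descriptions. Members and lists were chosen with earlier results of these data known. Genes named with values were THOC2, the 12 members with the largest and 5 with the smallest differences measured on both arrays, textbook G1/S and licensing genes, and 3 genes of each other list. Further members were named after their values were seen. Probe positions are those of the deposited annotation (hg19), and exons and UTRs were not analysed here. The code was tested on simulated data. Python 3.11.15, numpy 2.4.6, pandas 2.3.3, statsmodels 0.14.6, R 4.3.3 and limma 3.58.1 (normexp, offset 50) were used. Alternatives were quantile normalization, median scaling, lowess centring (span 0.3), normexp, other detection filters, dim signals at their limit, the authors' values, block centring and the brightest probe. Block centring placed a probe by its first spot.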

Additional observations from a re-analysis of the deposited data

How the results depend on the processing

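No paired analysis was possible because there was 1 array per condition. Scaling on the probes measured on both arrays, no scaling and centring by base composition were added after the data were seen. Relative to all genes, the members stayed higher under all 13 alternatives, from 0.13 to 0.34, but with no detection filter only 16 of them lay above the upper quartile of all genes, whose median was then 0.24. The median of the members was 0.21 with normexp and 0.030 with no scaling. The other replication and S-phase genes turned to -0.0083 with normexp and -0.22 with no scaling. The mitosis and G2/M genes were then at -0.038 and -0.28. The CDK inhibitors and RB family were at -0.10 with quantile normalization and the authors' values, -0.092 with lowess centring, -0.091 with no filter, -0.14 with normexp and -0.34 with no scaling. The gap between the highest and the lowest role median, 0.45, was 0.33 with normexp and 0.38 after centring by base composition.

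Member probes higher by 1.5-fold went from 8 to 0 with normexp and 1 with no scaling, and those lower from 2 to 0 with normexp and 1 with lowess centring, both arrays required or dim signals at their limit. With no filter, 1 member probe, of POLE and below background on both arrays, was higher by 2-fold. All probes lower and higher by 2-fold were 33 and 79 with normexp, 81 and 184 with both arrays required, 1929 and 3127 with no filter and 225 and 476 at the limit, and 1511 were lower with no scaling. The mean of the THOC2 probes (-1.03) was -0.51 with normexp and -1.34 with no scaling.

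With no scaling, 16 members changed sign, namely CDK6 (-0.31), CDK2 (-0.30), CDC25A (-0.25), FEN1 (-0.21), GINS3 (-0.18), RRM1 (-0.14), POLA2 (-0.13), GINS2 and POLA1 (-0.11), RFC4 (-0.10), ORC6 (-0.058), RPA3 (-0.042), MCM10 (-0.032), RFC5 (-0.020), MCM4 (-0.012) and CDC6 (-0.0096). The medians of 2 role groups did so too, single-strand binding and lagging strand (-0.21) and the G1/S regulators (-0.30). CDK2, CDK6, PRIM2 and the median of the G1/S regulators, all within 0.01 of 0, also changed sign in other settings, with highest values of 0.0088, 0.041, 0.048 and 0.062 over all settings. RPA1 turned to 0.30 with both arrays required, 0.094 at the limit and 0.076 with normexp. CCNE2 turned to 0.058 with normexp and 0.40 with no filter, CDC25A to -0.013 with normexp, and RRM1 to -0.017 with block centring. CDK4 and CCND1 kept their sign but moved lower in some settings. CDK4 was at -0.13 with quantile normalization, the authors' values and centring by base composition. It was at -0.14 with lowess centring, -0.15 with normexp and -0.36 with no scaling. CCND1 was at -0.080 with quantile normalization, -0.081 with the authors' values and -0.089 with lowess centring. It was at -0.14 with normexp and -0.33 with no scaling. The cause of the changes with normexp, lowess centring and block centring was not tested. Signal over background limits what dim probes can show, since below a log2 signal of 4 the technical SD was 0.44, more than the median difference of the members.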
